A study of Mus musculus with 8 samples.

Results

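The genes described here encode the core of transforming growth factor beta (TGF-beta) signalling: the ligand Tgfb1, the receptors Tgfbr1 and Tgfbr2, the signal carriers Smad2, Smad3 and Smad4, the nuclear corepressors Ski, Skil and Tgif1, and the induced matrix gene Tgfbi. These 10 genes were picked by name for their roles, with earlier results of these data known, from the 24421 gene symbols of the count files. All 10 had enough counts to be tested, as did 11519 of all symbols. They were measured in mouse bone marrow-derived macrophages (BMDM), cells grown in culture from marrow and sequenced after 24 h with interleukin 4 (IL-4), the cytokine of alternative activation. In 4 libraries (CKO, replicates 2, 6, 7 and 8) the mice were OPA1f/f with Lyz2-Cre, and in 4 (FLOX, replicates 3, 4, 6 and 7) they were OPA1f/f without the driver. The floxed alleles of Opa1, which encodes a GTPase of the inner mitochondrial membrane, and IL-4 were thus shared by all 8 libraries. Lyz2-Cre expresses Cre recombinase from the lysozyme 2 locus in myeloid cells, so Opa1 deletion and the presence of the driver cannot be told apart. The labels used here give no age, and they do not say whether libraries came from separate mice, so p-values measure only the spread between these libraries.

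TGF-beta is secreted as a latent complex and, once released, binds the type II receptor, which recruits and phosphorylates the type I receptor. The type I receptor phosphorylates SMAD2 and SMAD3, which join SMAD4, enter the nucleus and regulate genes, while SKI, SnoN (the product of Skil) and TGIF1 repress genes bound by these complexes. Macrophages make TGF-beta, in particular while they clear dying cells, and respond to it by dampening inflammatory genes. Much of this regulation acts on proteins, which transcript counts do not measure.

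The libraries held 11764855 to 18939948 counts over all gene symbols. Levels are given as CPM, the usual count per mega-count of library size, after TMM scaling. The driver gene Lyz2 stood at 2030 ± 251 CPM in CKO and at 7439 ± 597 CPM in FLOX, with no overlap. Here and below, means are ± SD over the libraries of a group (n = 4), and a log2 ratio is the fitted CKO level over that of FLOX on the log2 scale. The 95% intervals are not adjusted for the number of genes, unlike the p-values. Opa1 itself stood at 100.1 ± 4.42 and 114 ± 11.7 CPM, a log2 ratio of -0.19 (by edgeR, adjusted p = 0.0544). Counts over the whole gene do not isolate a deleted exon. The 8 defining macrophage markers were abundant in all libraries and summed to 6900 to 7434 CPM in CKO and 7649 to 8065 CPM in FLOX, 1 of them rising and 3 falling. The extraction text of the labels also speaks of islets, but 6 of 7 islet markers had 0 counts in every library. Summed markers reached at most 1.35 CPM for T and NK cells, 0.33 for B cells and 3.08 for dendritic cells. The neutrophil and precursor list summed to 121 to 150 CPM in CKO and 220 to 317 CPM in FLOX, nearly all of it Csf3r, which fell (from 268 to 129 CPM). The others did not follow: S100a9 rose (from 1.03 to 3.11 CPM), S100a8 (0.83 in FLOX, 1.53 CPM in CKO) and Mmp8 (2.97 in both) were not called, Mpo (0.06 in FLOX, 0.38 CPM in CKO) was too scarce to test and Elane had 0 counts. The part of such cells in the results was not tested. Calls were made at an adjusted p of 0.05 by the quasi-likelihood test of edgeR. They took in 45.4% of the 11519 tested genes, 23.8% as higher and 21.6% as lower in CKO, so a difference between the groups was common in these libraries. In bulk RNA, fewer cells of a type and less RNA per cell cannot be told apart.

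The promoters of the most raised gene, Tgfbi, and of the type II receptor gene Tgfbr2, which fell, are shown because a target and a receptor of the pathway moved in opposite directions with calls that held in all alternatives. Each is written in the sense of the gene and ends just before it, from RefSeq (GRCm38.p6, the same assembly as mm10), and capitals mark the SMAD box, searched as CAGAC on both strands, hence also GTCTG. The first lies at chr13:56609336-56609522 on the plus strand and the second at chr9:116175364-116175613 on the minus strand.
Tgfbi: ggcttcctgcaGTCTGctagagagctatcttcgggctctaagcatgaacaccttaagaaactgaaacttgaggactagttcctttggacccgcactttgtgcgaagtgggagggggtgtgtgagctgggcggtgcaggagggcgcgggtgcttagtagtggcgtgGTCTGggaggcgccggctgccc
Tgfbr2: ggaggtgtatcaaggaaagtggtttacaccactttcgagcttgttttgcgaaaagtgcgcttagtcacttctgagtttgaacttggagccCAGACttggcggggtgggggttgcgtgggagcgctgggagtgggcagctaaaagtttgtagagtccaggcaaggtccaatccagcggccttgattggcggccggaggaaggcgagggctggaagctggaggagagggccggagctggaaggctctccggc
The Tgfbi stretch held 2 SMAD boxes in 187 bases and that of Tgfbr2 held 1 in 250 bases. None of these boxes overlapped the GC-rich SMAD site (GGCGC or, on the other strand, GCGCC). In windows of 250 bases before the start, 42.2% of all 32851 RefSeq windows held a SMAD box and 32% the GC-rich site, so neither is rare. In such windows Ski had 7 GC-rich sites, Tgfbi 3, Tgfbr1 up to 3, Tgfb1 1, Tgif1 up to 1, and Tgfbr2 and Smad3 0. Tgif1, which fell, had up to 2 SMAD boxes in a window, as many as Tgfbi. A STAT6 site, the TTC and GAA half-sites of the factor that IL-4 activates with 4 bases between them, was in 5.85% of all windows and in 0 windows of the 7 members that have one. A match describes letters, not binding, and no match says only that these letters are not in the window.

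Of the 10 genes 1 rose and 4 fell in CKO, against 23.8% and 21.6% of all tested genes. Tgfbi reached 208% of FLOX, while Tgfbr2 and Tgif1 both stood at 75.6%, Smad3 at 76.6% and Smad4 at 88.4%. The other 5 (Tgfb1, Tgfbr1, Smad2, Ski and Skil) did not pass the test. The calls of Tgfbi, Tgfbr2 and Tgif1 held in all 21 alternative analyses, whereas those of Smad3 and Smad4 held in 10 and 9. The number of genes called lower dropped from 4 to 2 without CKO replicate 6 or without CKO replicate 7, and the number called higher rose from 1 to 2, with Skil, without CKO replicate 2, FLOX replicate 4 or FLOX replicate 7. The median log2 ratio was -0.09 over the 10 and -0.02 over all tested genes, and the median size of the change regardless of sign was 0.28 and 0.23.

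**Figure D1:**
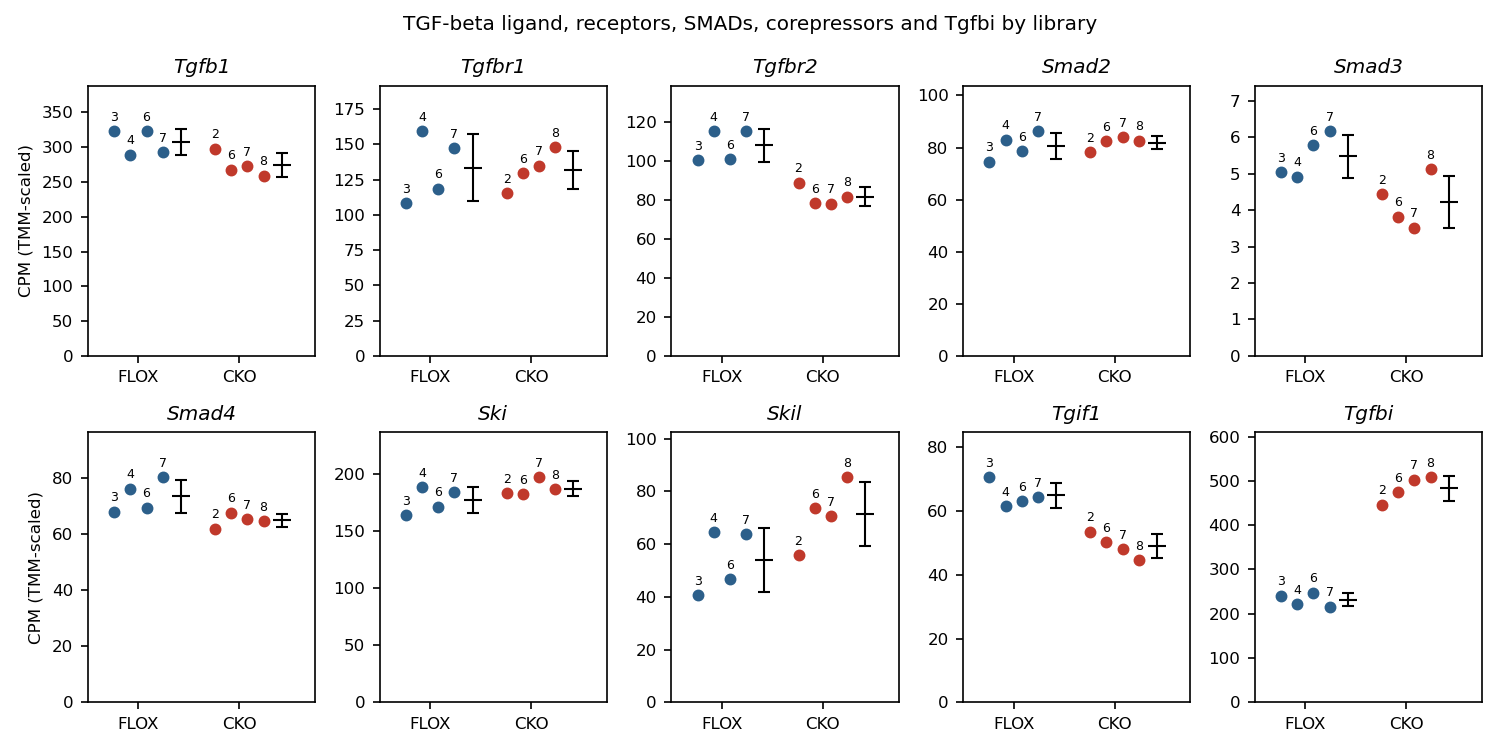
Scaled level (CPM, axes from 0) of each of the 10 genes in the 4 FLOX (blue) and 4 CKO (red) libraries, each point labelled with its replicate number, and the mean ± SD beside them. For Tgfbi all CKO points lie far above the FLOX points, for Tgfbr2, Tgif1 and Smad4 all lie below, and for the other 6 genes the groups overlap.

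Tgfb1, the only TGF-beta ligand gene with more than traces of reads, did not pass the test. It stood at 298, 268, 272.5 and 259 CPM in CKO replicates 2, 6, 7 and 8, and at 323, 289, 323 and 293 CPM in FLOX replicates 3, 4, 6 and 7. CKO replicate 2 was within the FLOX range and the other 3 CKO libraries below it. The means were 274 ± 16.7 and 307 ± 18.5 CPM, a log2 ratio of -0.16 ± 0.07 (SE; by edgeR, adjusted p = 0.0564). This was 89.2% of FLOX (95% interval 79.9% to 99.7%). The call depended on the method, with adjusted p = 0.0406 in DESeq2 and 0.0163 in edgeR with a GC offset, and on the libraries used: edgeR adjusted p was 0.0302 without CKO replicate 2, 0.0437 without FLOX replicate 4, 0.0432 without FLOX replicate 7, and up to 0.433 over all alternatives. The other ligand genes Tgfb2 and Tgfb3 had 8 and 32 counts in all 8 libraries together, too few to test. Platelet and megakaryocyte genes, from cells rich in TGF-beta1, summed to 0.185 to 0.337 CPM in CKO and 0.108 to 0.561 CPM in FLOX, with Gp6 at 0 counts.

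Of the 2 receptor genes Tgfbr2 fell and Tgfbr1 was not called. Tgfbr2, which encodes the ligand-binding type II receptor, was at 88.9, 78.4, 78.1 and 81.7 CPM in CKO replicates 2, 6, 7 and 8 and at 100.5, 115.4, 101 and 115.4 CPM in FLOX replicates 3, 4, 6 and 7. Every CKO library was below every FLOX library; the groups were as separate, in either direction, for 42.7% of all tested genes. Tgfbr2 fell from 108 ± 8.45 to 81.8 ± 4.99 CPM, a log2 ratio of -0.40 ± 0.07 (SE; by edgeR, adjusted p = 0.000542), with a 95% interval of 67.1% to 85.2% of FLOX. Tgfbr1, which encodes the type I receptor kinase, was at 115, 129.5, 135 and 148 CPM in CKO and at 108, 159, 119 and 147 CPM in FLOX, in the same order of replicates. Its groups overlapped throughout, and the fold change was -0.01 on the log2 scale (± 0.12 SE; by edgeR, adjusted p = 0.932), with an interval of 81.1% to 121% of FLOX that leaves room for changes of about that size. The direction for Tgfbr1 was not fixed by these data, since it turned in 8 of 21 alternatives.

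The ratio of type I to type II receptor counts within a library does not depend on scaling between libraries. It was 1.30, 1.65, 1.73 and 1.81 in CKO replicates 2, 6, 7 and 8 and 1.08, 1.38, 1.17 and 1.28 in FLOX replicates 3, 4, 6 and 7. CKO replicate 2 thus lay below the highest FLOX library and the other 3 above all FLOX libraries. On the log2 scale the mean ratio was 0.69 ± 0.22 in CKO and 0.29 ± 0.15 in FLOX, a difference of 0.40 that ran from 0.336 to 0.501 with 1 library left out. No test was made, as the ratio is built from genes of the set.

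Among the SMAD genes, the partner shared with the bone morphogenetic protein branch, Smad4, and the receptor-activated Smad3 were lower in CKO, and Smad2 was close to FLOX. Smad3 was by far the least abundant of the 10, with 53 to 107 counts per library. It was at 4.44, 3.82, 3.51 and 5.12 CPM in CKO replicates 2, 6, 7 and 8 and at 5.05, 4.92, 5.78 and 6.17 CPM in FLOX replicates 3, 4, 6 and 7. CKO replicate 8 was within the FLOX range and the other 3 below it. Smad3 fell from 5.48 ± 0.60 to 4.22 ± 0.71 CPM, a log2 ratio of -0.38 ± 0.14 (SE; by edgeR, adjusted p = 0.0439). This call was lost in 11 of 21 alternatives. Leaving out CKO replicate 2, 6 or 7 gave adjusted p = 0.0756, 0.147 or 0.171 in edgeR, and leaving out FLOX replicate 6 or 7 gave 0.0939 or 0.104.

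Smad4 was at 61.9, 67.5, 65.3 and 64.5 CPM in CKO and at 67.9, 76.1, 69.3 and 80.1 CPM in FLOX, in the same order. All CKO libraries were below all FLOX libraries, although CKO replicate 6 and FLOX replicate 3 nearly met. Smad4 fell from 73.3 ± 5.75 to 64.8 ± 2.33 CPM, a log2 ratio of -0.18 ± 0.07 (SE; by edgeR, adjusted p = 0.0457), and the call was lost in 12 of 21 alternatives. Leaving out CKO replicate 2, 6, 7 or 8 gave adjusted p = 0.173, 0.0994, 0.144 or 0.15 in edgeR, and leaving out FLOX replicate 4 or 7 gave 0.0997 or 0.117. Smad2, the receptor-activated partner of Smad3, was at 78.2 to 84.0 CPM in CKO and 74.6 to 86.4 CPM in FLOX. Its log2 ratio of 0.02 (± 0.06 SE; by edgeR, adjusted p = 0.795) had an interval of 91.5% to 113% of FLOX.

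There was little Smad3 beside Smad2 in either group. The within-library count ratio of Smad3 to Smad2 was 0.0568, 0.0464, 0.0419 and 0.0619 in CKO and 0.0677, 0.0593, 0.0735 and 0.0715 in FLOX. CKO replicate 8 was above the lowest FLOX library and the other 3 below all of them. The mean log2 ratio was -4.29 ± 0.26 and -3.88 ± 0.14, and the difference of -0.41 ran from -0.499 to -0.31 with 1 library left out.

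Of the corepressor genes 1 fell and 2 were not called. Tgif1, a homeodomain protein that recruits histone deacetylases to SMAD complexes, was at 53.5, 50.2, 48.0 and 44.6 CPM in CKO replicates 2, 6, 7 and 8 and at 70.5, 61.4, 63.1 and 64.4 CPM in FLOX replicates 3, 4, 6 and 7. The groups did not overlap, and Tgif1 fell from 64.8 ± 3.94 to 49.1 ± 3.73 CPM, a log2 ratio of -0.40 ± 0.07 (SE; by edgeR, adjusted p = 0.000555). Ski was nearly level, at 183 to 197 CPM in CKO and 164 to 189 CPM in FLOX, a log2 ratio of 0.08 ± 0.06 (SE; by edgeR, adjusted p = 0.293), with an interval of 95.5% to 117% of FLOX.

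Skil, which encodes SnoN and is itself induced by TGF-beta as a feedback inhibitor, varied most within the groups. It was at 55.8, 73.6, 70.7 and 85.3 CPM in CKO replicates 2, 6, 7 and 8 and at 40.7, 64.6, 46.8 and 63.9 CPM in FLOX replicates 3, 4, 6 and 7. In CKO 3 of 4 libraries were above all FLOX libraries, and replicate 2 was below FLOX replicates 4 and 7. The mean was 71.4 ± 12.1 in CKO and 54.0 ± 12.1 CPM in FLOX, a log2 ratio of 0.41 ± 0.16 (SE; by edgeR, adjusted p = 0.0661), not past the threshold. It was called without CKO replicate 2, a log2 ratio of 0.53 (by edgeR, adjusted p = 0.0257), without FLOX replicate 4 (0.50, adjusted p = 0.0432) and without FLOX replicate 7 (0.50, adjusted p = 0.0361).

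Tgfbi (ENSMUSG00000035493, chromosome 13, 56609523 to 56639562, mm10) encodes a secreted matrix protein that binds collagens and integrins and takes its name from its induction by TGF-beta. It was at 446, 475, 503 and 508 CPM in CKO replicates 2, 6, 7 and 8 and at 241, 222, 248 and 216 CPM in FLOX replicates 3, 4, 6 and 7. The lowest CKO library was far above the highest FLOX library. Tgfbi rose from 232 ± 15.1 to 483 ± 28.5 CPM, a log2 ratio of 1.06 ± 0.07 (SE; by edgeR, adjusted p = 3.52e-07). This was 208% of FLOX (95% interval 186% to 234%). By p-value it ranked 51 among the 11519 tested genes, and its log2 ratio stayed between 0.98 and 1.16 over the 21 alternatives. Fibroblasts and other stromal cells also make this protein: the 11 stromal and endothelial markers summed to 13.2 to 15.8 CPM in CKO and 8.94 to 10.2 CPM in FLOX, most of it Pecam1 (11.6 and 7.21 CPM), which macrophages express too. The defining stromal genes Lum, Col3a1, Dcn and Pdgfra had 0, 2, 3 and 3 counts in all 8 libraries together. The collagen I genes were low but present, with CKO means of 0.92 ± 0.45 (Col1a2) and 0.42 ± 0.23 CPM (Col1a1) beside FLOX means of 0.50 ± 0.25 and 0.25 ± 0.18 CPM, both too scarce to test. Pdgfrb stood at 0.52 and 0.56 CPM and Postn at 0.62 and 0.78 CPM. The part of such cells in the Tgfbi result was not tested.

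**Figure D2:**
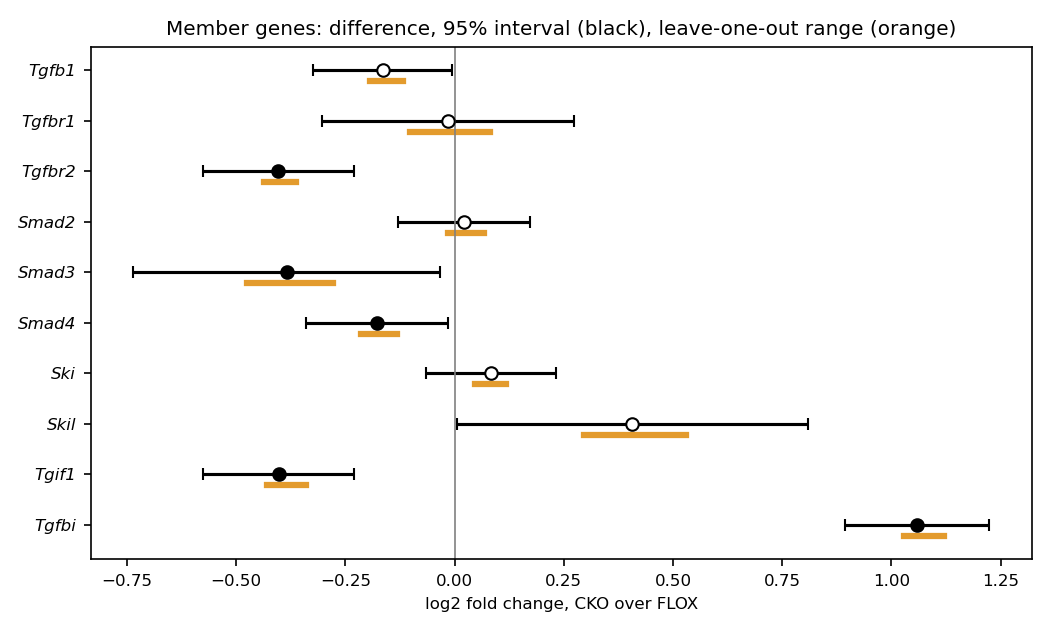
Log2 fold change of CKO over FLOX for the 10 genes, with 95% intervals in black (filled circles passed an edgeR adjusted p of 0.05, open circles did not) and, in orange, the range over the 8 fits that leave out 1 library each. Tgfbi stands alone on the right at 1.06, Tgfbr2 and Tgif1 are near -0.40 with narrow ranges, and the intervals of Smad3 and Skil are the widest together with that of Tgfbr1.

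Levels between genes were compared as CPM per kb of merged GENCODE exons, since longer transcripts gather more reads. In FLOX the order ran from Tgfbi (61.4 ± 4.01) and Tgfb1 (60.9 ± 3.67) over Ski (31.9 ± 2.06), Tgfbr1 (20.4 ± 3.67), Smad4 (19.8 ± 1.55), Tgfbr2 (13.2 ± 1.03), Tgif1 (11.5 ± 0.70), Smad2 (9.18 ± 0.58) and Skil (5.57 ± 1.25) to Smad3 (0.99 ± 0.11 CPM per kb; SD, n = 4). Tgfbi and Tgfb1, Tgfbr1 and Smad4, and Tgfbr2 and Tgif1 overlapped there, while the other neighbours did not. In CKO Tgfbi (128 ± 7.56 CPM per kb) was far above Tgfb1 (54.4 ± 3.32), followed by Ski (33.7 ± 1.21), Tgfbr1 (20.2 ± 2.09), Smad4 (17.4 ± 0.63), Tgfbr2 (9.99 ± 0.61), Smad2 (9.32 ± 0.28), Tgif1 (8.73 ± 0.66), Skil (7.36 ± 1.25) and Smad3 (0.76 ± 0.13). Neighbours from Tgfbr2 down to Skil overlapped in CKO, as did Tgfbr1 and Smad4. These levels assume that the authors counted the same exons, which the sources used here do not give.

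Within FLOX most of the 10 genes followed a split of the libraries that most of all tested genes shared. FLOX replicates 3 and 6 were both below FLOX replicates 4 and 7 for 6 genes (Tgfbr1, Tgfbr2, Smad2, Smad4, Ski and Skil) and both above for 2 (Tgfb1 and Tgfbi). Such a split of these 4 libraries held for 63.1% of all tested genes, and the same libraries part on the second principal component of all genes, which held 12.7% of the variance. It moved several comparisons with CKO. Without FLOX replicates 3 and 6 the log2 ratio of Tgfbr1 was -0.22 (edgeR adjusted p = 0.0325) and without replicates 4 and 7 it was 0.22 (edgeR adjusted p = 0.0463). For Skil the same fits gave 0.16 (edgeR adjusted p = 0.368) and 0.70 (edgeR adjusted p = 0.00177), for Tgfb1 -0.09 (0.23) and -0.24 (0.00554), and for Smad4 -0.27 (0.00144) and -0.08 (0.265). Tgfbi, Tgfbr2 and Tgif1 were called in both. The pairs were chosen after the split was seen in these same values. Leaving out 1 pair therefore shifts the ratios by choice and narrows the FLOX spread. The adjusted p-values of these fits thus describe them and do not serve as tests. The labels name no batch, and the part of preparation or animals in this split was not tested.

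**Figure D3:**
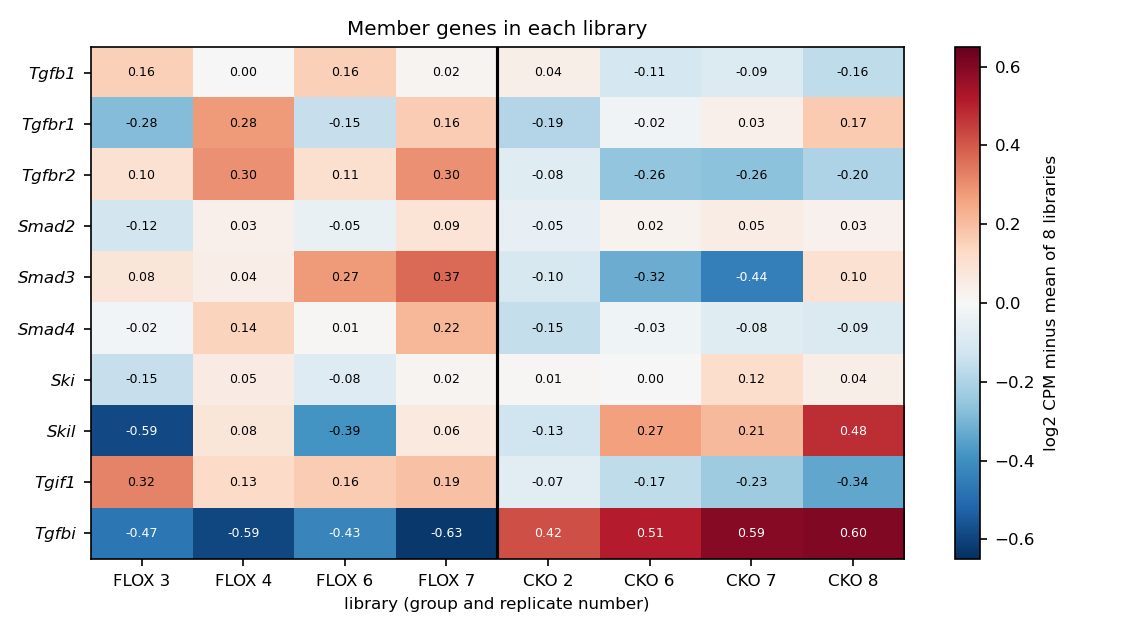
Log2 CPM of each of the 10 genes (rows) in each library (columns, FLOX left and CKO right), centred on the mean of the 8 libraries, with red above and blue below it. Tgfbi separates the groups most (at most -0.43 in FLOX and at least 0.42 in CKO), while Skil is at -0.59 and -0.39 in FLOX replicates 3 and 6 but at 0.08 and 0.06 in FLOX replicates 4 and 7.

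By the distance of centred log2 CPM profiles over the 8 libraries, the genes most like Tgfb1 were Tmbim6, Ciz1 and Mat2b (root mean square difference 0.0186, 0.0191 and 0.0235). Those nearest to Tgfbr1 were Larp4, Cdc37l1 and Dusp4 (0.0388, 0.0443 and 0.0481), and those nearest to Tgfbr2 were Zmynd8, Mdfic and Acadsb (0.0315, 0.0318 and 0.0329). All points of such a profile share the libraries and their scaling.

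The other genes of the pathway moved in both directions. Of 77 listed genes with other roles 63 were tested, of which 14 rose (22.2%) and 18 fell (28.6%), against 23.8% and 21.6% of all tested genes, with a median log2 ratio of -0.05. With library size alone in place of TMM the counts were 18 higher and 13 lower, without FLOX replicates 3 and 6 they were 16 and 27, and without CKO replicate 8 they were 13 and 11. Of 8 tested genes of the processing, anchoring and release of latent TGF-beta, 1 rose (12.5%) and 4 fell (50%), with a median of -0.55. The shares of all tested genes are those given above. Furin, the protease that cleaves the TGF-beta precursor, fell from 338 ± 24.5 to 218 ± 23.3 CPM, a log2 ratio of -0.63 ± 0.08 (SE; by edgeR, adjusted p = 4.87e-05). Thbs1, which encodes the latency-activating thrombospondin 1, fell by 0.99 and Lrrc32, which encodes GARP, a surface anchor of latent TGF-beta, by 1.02 on the log2 scale. Both were scarce, at 6.50 and 4.75 CPM in CKO. Itgav, the alpha chain of the integrins that free TGF-beta from its latent complex, rose from 106 ± 17.3 to 158 ± 14.9 CPM, a log2 ratio of 0.58.

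Of 11 tested receptor partners and adaptors 4 rose (36.4%) and 3 fell (27.3%), against 23.8% and 21.6% of all tested genes. Their median log2 ratio was 0.13. Dab2, an endocytic adaptor that links TGF-beta receptors to SMADs, rose from 527 ± 35.7 to 1129 ± 98.6 CPM, a log2 ratio of 1.10 ± 0.08 (SE; by edgeR, adjusted p = 6.81e-07). Cd109, a coreceptor that inhibits TGF-beta signalling, rose by 0.54 and Strap, which stabilises the binding of SMAD7 to the receptor, by 0.33. Acvrl1, a type I receptor of the same family best known from endothelium, fell by 0.38 on the log2 scale.

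Of 13 tested inhibitors of the pathway and enzymes of protein turnover 2 rose (15.4%) and 4 fell (30.8%). The shares of all tested genes were 23.8% and 21.6%, and the median log2 ratio of the list was -0.07. The 2 that rose are feedback inhibitors which TGF-beta itself induces, and both were scarce. Smad7, the inhibitory SMAD, rose from 3.27 ± 0.20 to 5.56 ± 0.39 CPM, a log2 ratio of 0.76 ± 0.12 (SE; by edgeR, adjusted p = 0.000214). Pmepa1, which sequesters receptor-activated SMADs, rose from 2.40 ± 0.40 to 4.09 ± 0.77 CPM, a log2 ratio of 0.76 (by edgeR, adjusted p = 0.00382). The ubiquitin ligases Wwp1 and Nedd4l, which mark receptors and SMADs for degradation, fell by 0.63 and 0.41 on the log2 scale.

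Of 11 tested nuclear partners 4 rose (36.4%) and 1 fell (9.09%), against 23.8% and 21.6% of all tested genes. Their median log2 ratio was 0.04. Runx3, a RUNT factor that cooperates with SMADs, rose from 0.613 ± 0.15 to 3.12 ± 0.59 CPM, a log2 ratio of 2.37 ± 0.23 (SE; by edgeR, adjusted p = 6.53e-06), the largest change among the pathway lists and one at a low level. The histone deacetylase gene Hdac1 rose by 0.43, the repressor gene Zeb1 by 0.85 and the corepressor scaffold gene Sin3a by 0.25 on the log2 scale. With the replicate number as a block Zeb1 (0.59, adjusted p = 0.0537 in edgeR) and Sin3a (0.16, adjusted p = 0.312) were not called.

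The listed genes known as targets of TGF-beta in other cells moved in both directions. Of 11 tested, 2 rose (18.2%) and 5 fell (45.5%), against 23.8% and 21.6% of all tested genes. Their median log2 ratio was -0.38. Cdkn1a, the cell cycle inhibitor p21, rose from 195 ± 32.6 to 407 ± 31.8 CPM, a log2 ratio of 1.06 ± 0.11 (SE; by edgeR, adjusted p = 7.89e-06). Fibronectin (Fn1) fell from 91.7 ± 19.2 to 31.8 ± 4.90 CPM, a log2 ratio of -1.53 ± 0.15 (SE; by edgeR, adjusted p = 1.65e-05), Tsc22d1 by 1.01 and Angptl4 by 1.40 on the log2 scale, the last from 3.34 to 1.27 CPM. Ctgf, Acta2, Snai1, Snai2 and Itgae were too scarce to test. All of these targets also answer to other signals. The TGF-beta-induced genes Smad7 and Pmepa1, which rose, and Skil, which was not called, were counted in other lists above.

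Of 9 genes of the branch that runs through TAK1, p38 and RHOA rather than SMADs, 1 rose and 1 fell (11.1% each). The shares of all tested genes were 23.8% and 21.6%, and the median log2 ratio of the list was -0.0018. Daxx, a nuclear adaptor tied to JNK activation, rose by 0.28 (± 0.07 SE; by edgeR, adjusted p = 0.00547) and Shc1, an adaptor to RAS, fell by 0.17 on the log2 scale (± 0.05 SE; by edgeR, adjusted p = 0.0233). The Shc1 call was lost in 6 of 21 alternatives, which include leaving out CKO replicate 6, 7 or 8 or FLOX replicate 4. The highest of these adjusted p by edgeR was 0.319. The ubiquitin ligase gene Traf6 had a log2 ratio of -0.14 (edgeR adjusted p = 0.222) and Mapk14, which encodes p38 alpha, one of 0.05 (edgeR adjusted p = 0.456).

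**Figure D4:**
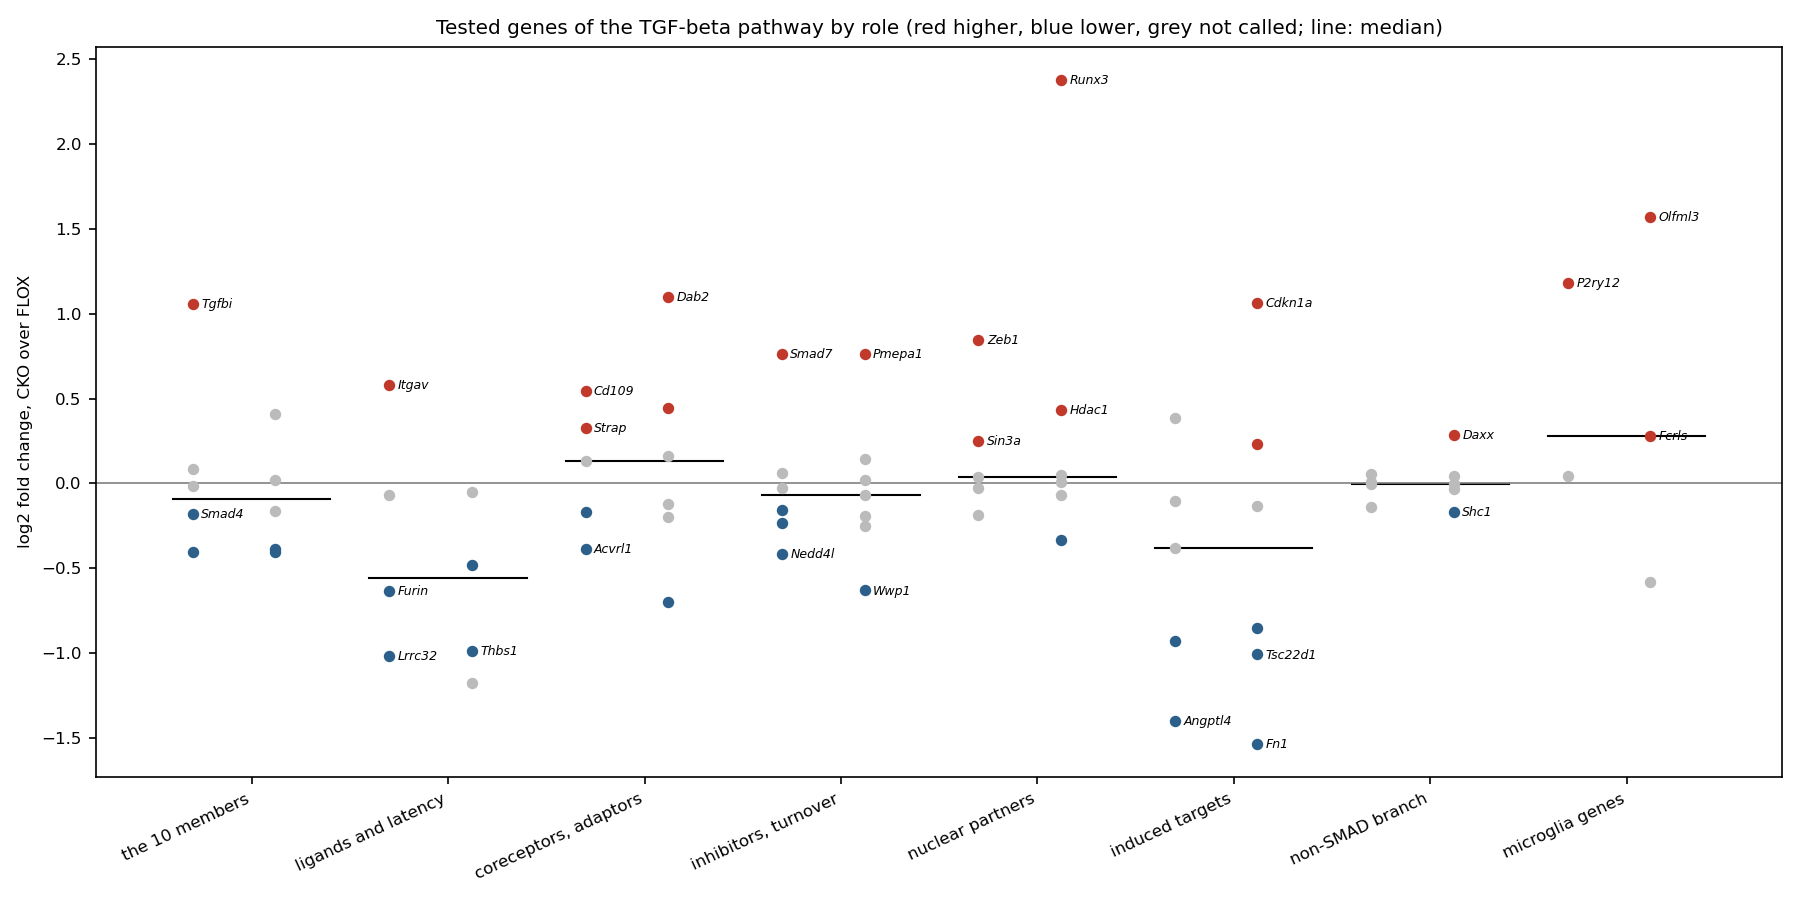
Log2 fold change of CKO over FLOX for the tested genes of each list, red where higher and blue where lower at an edgeR adjusted p of 0.05, grey where not called, with the median as a line. Runx3 is the highest point at 2.37 and Fn1 the lowest at -1.53, and the median of the non-SMAD branch is -0.0018.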

How the data were processed

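RNA of 8 libraries was sequenced as paired-end reads. The submitters' processing notes name HISAT2 2.0.5, HTSeq and the mm10 build. The deposited values are whole-number counts per gene symbol for each library, not normalised. Which annotation and strand setting the authors used for these counts is not given in the sources used here. Multiply aligned pairs (5.03% to 6.01%) and the other 4 unassigned classes were left out. For 24394 gene names the counts equalled those of the deposited table of the whole series. No annotated gene shared exonic bases with a member. No 2 libraries of a group agreed within sampling noise (the chi-square of their counts over its degrees of freedom was 2.45 to 27.8).

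The test was run with edgeR 4.0.16 under R 4.3.3: filterByExpr (minimum count 10, total 15), TMM factors, robust quasi-likelihood F test of CKO against FLOX, Benjamini-Hochberg over 11519 genes, called at 0.05. The SE divides the log2 fold change by the square root of F, and the 95% interval takes its t quantile from 6 residual degrees of freedom. DESeq2 1.42.0 and limma 3.58.1 (voom) served as alternatives. The procedure was checked on simulated counts. Positions and exon lengths are from GENCODE M21 (GRCm38), and promoter windows, found for 7 of the 10 genes, from RefSeq. The members and lists were chosen with earlier results of these data known. Named are the 10 members, at most 4 genes per other list, by smallest p, Opa1, Lyz2 and the 3 nearest profiles of Tgfb1, Tgfbr1 and Tgfbr2. Tgfb2, Tgfb3, Nrros, the untested targets and the stromal, neutrophil and platelet genes were named after their values were seen.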

Additional observations from a re-analysis of the deposited data

Results flagged for a closer look

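Among 80 groups of 4 libraries (40 named genes, CKO and FLOX) 5 held 1 library far from the other 3, and chance alone flags about 1 in 20 such groups. None of the 5 was a group of the 10 core genes. CKO replicate 2 stood apart for 2 genes, with Furin at 253 CPM against 204 to 209 CPM in the other CKO libraries, and Dab2 at 982 against 1166 to 1195 CPM. FLOX replicate 7 stood apart for Smad7, at 2.98 against 3.35 to 3.40 CPM, and for Olfml3, at 0.497 against 1.08 to 1.19 CPM. FLOX replicate 6 stood apart for Shc1, at 128 against 137 to 138 CPM. In the fits without any 1 of these libraries Furin, Dab2, Smad7, Olfml3 and Shc1 were still called in the same direction. The Shc1 call was lost without some other libraries, as given above.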

How the results depend on the processing

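Of 21 alternatives 17 were planned, and 4 (GC offset, without CKO 2 and FLOX 6, without FLOX 3 and 6, without FLOX 4 and 7) were chosen after seeing the data. Where a call was lost or gained the cause was not tested. Library size alone in place of TMM moved the median of all genes by 0.101 on the log2 scale and the share of higher calls from 52.4% to 69.9%, against 42.1% with the GC offset. Of the 10 genes, the number called higher (1 as reported) was 3 with library size alone, 2 with upper-quartile factors or DESeq2, 4 without FLOX 4 and 7, and 1 to 2 with 1 library left out. The number called lower (4 as reported) was 2 with library size alone, with the 20 most abundant genes removed or without CKO 2 and FLOX 6, 5 with the GC offset, which adds Tgfb1, and 2 to 4 with 1 library left out. For the other pathway genes 11 to 20 were called lower with 1 library left out (18 as reported) and 13 to 16 higher (14 as reported).

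The log2 fold change of Tgfbr1 was positive with library size alone (0.0876), with the 20 most abundant genes removed (0.00481), without CKO 2 and FLOX 6 (0.0135) and without FLOX 4 and 7 (0.216). With 1 library left out it ran from -0.102 (without FLOX replicate 3) to 0.0805 (without FLOX replicate 4), positive also without CKO replicate 2, CKO replicate 6 or FLOX replicate 7. Smad2 turned negative without FLOX 3 and 6 (-0.0502) and with the GC offset (-0.0888), and ran from -0.0143 (without FLOX replicate 3) to 0.0669 (without CKO replicate 2) with 1 library left out. Traf6 turned positive without FLOX 4 and 7 (0.0154). Numbers 6 and 7 occur in both groups, but nothing says that they pair libraries, and deviations of same-numbered libraries correlated at 0.139 and -0.0722. With the replicate number as a block, a fit that rests on these 2 pairs, 3503 genes were called in place of 5231, 2 members higher (Skil at 0.40, edgeR adjusted p = 0.0114) and 3 lower. Smad4 (-0.17, edgeR adjusted p = 0.315) was then not called. The calls of Zeb1, Sin3a, Shc1 and Fcrls were also lost with the block. Smad3 had only 53 to 107 counts per library, which limits its precision.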

Other observations

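A list of 8 genes that microglia, the macrophages of the brain, express under the influence of TGF-beta was read in the same way, although these are marrow cultures. Of 5 tested members 3 rose and 0 passed the test as lower, against 23.8% and 21.6% of all tested genes, with a median log2 ratio of 0.28. P2ry12, a purinergic receptor, rose from 2.20 ± 0.26 to 5.04 ± 0.65 CPM, a log2 ratio of 1.18 ± 0.15 (SE; by edgeR, adjusted p = 4.32e-05), and Olfml3, a secreted olfactomedin-like protein, from 0.976 ± 0.32 to 2.94 ± 0.41 CPM, a log2 ratio of 1.57 (by edgeR, adjusted p = 0.000148). The Fc receptor-like gene Fcrls rose from 83.1 ± 4.41 to 101 ± 7.74 CPM, a log2 ratio of 0.28 that was not called with the replicate number as a block (0.25, adjusted p = 0.108 in edgeR), and Gpr34 had a log2 ratio of -0.58 (± 0.25 SE; by edgeR, adjusted p = 0.0814). Gpr34 was called lower without FLOX replicate 6 (-0.74, adjusted p = 0.0302 in edgeR), without FLOX replicates 3 and 6 (-0.88, 0.0118) and with the GC offset (-0.67, 0.0371). Sall1, the factor that defines microglia, had 0 counts in every library, so the list marks single genes here and not that cell type.

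Relative to Ski within the same library, a ratio chosen after its values were seen, Tgif1 stood at 0.292, 0.275, 0.243 and 0.238 in CKO replicates 2, 6, 7 and 8 and at 0.43, 0.325, 0.367 and 0.35 in FLOX replicates 3, 4, 6 and 7, with no overlap. Skil relative to Ski stood at 0.305, 0.403, 0.358 and 0.456 in CKO and at 0.248, 0.342, 0.272 and 0.347 in FLOX, with overlap through CKO replicate 2.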
